A study of Mus musculus with 22 samples.

Results

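Rab GTPases are the small GTPases that assign identity to the membranes of the endocytic and secretory pathways. The Rab genes were taken as all symbols made of "Rab", a number and at most a letter and a digit, each measured by its brightest probe, where that probe was detected (detection p under 0.05) on at least 4 of 22 arrays. Of 59 such symbols on the array, 52 passed, among 11118 genes tested. The other 7 were Rab11a, Rab20, Rab2b, Rab30, Rab3b, Rab40b and Rab9b, of which no probe was detected on more than 2 arrays. Expression was measured on Illumina bead arrays in 5 populations sorted from the bone marrow of C57BL/6 mice that were 8 weeks old and all carried the GATA1-GFP transgene, in which a green fluorescent protein reports the transcription factor GATA1. The populations were GATA1+LSK and GATA1-LSK (4 arrays each), the GFP-positive and GFP-negative fractions of the LSK compartment of stem and early progenitor cells, LMPP (lymphoid-primed multipotent progenitors, 4 arrays), CMP (common myeloid progenitors, 4 arrays) and LT-HSC (haematopoietic stem cells with long-term activity, 6 arrays). No group lacked the transgene, and no treatment was given in the labels. Nothing in the labels ties replicates to different animals, and the p-values therefore weigh differences against an array-to-array spread that could be technical.

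Each Rab cycles between an inactive GDP-bound and an active GTP-bound form. Guanine nucleotide exchange factors (GEFs) switch it on at a given membrane, GTPase-activating proteins (GAPs) switch it off, and the active form binds effectors that move, tether or fuse vesicles. Rabs are prenylated to hold them on the membrane, and GDP dissociation inhibitors return them to the cytosol. In blood cells the family is best known for granule release, through Rab27a and Rab27b in platelets, mast cells and cytotoxic lymphocytes, and for lysosome-related organelles such as platelet dense granules, which use Rab32 and Rab38.

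The arrays bear on these results in several ways. Between 38 and 50 of the 52 Rab genes were detected per array. The arrays lay on 4 slides, and slide 2 was the brightest (mean intensity 311 to 462) and slide 3 the dimmest (123 to 209). LMPP and LT-HSC shared no slide, nor did GATA1-LSK and CMP. Among the markers of the sorted cells, Gata1 had its highest mean log2 signal in GATA1+LSK (7.05) and its lowest in LMPP (4.76), and Dntt, which lymphoid progenitors use to diversify antigen receptors, was highest in LMPP (8.84). Of the list that held Gata1, Itga2b was also highest in GATA1+LSK (12.68), while Kit was highest in GATA1-LSK (12.16, against 11.60 in GATA1+LSK). Other markers went against the labels: Il7r of the LMPP list was higher in LT-HSC (7.52) than in LMPP (7.20), and Cd34 of the CMP list higher in LMPP (8.13) than in CMP (7.46). Of the LT-HSC list, Slamf1 was highest in GATA1+LSK (5.88, against 5.48 in LT-HSC), Hlf was lowest in LT-HSC (5.43), and Mecom was 6.79 in LT-HSC and 6.78 in GATA1-LSK. Flt3, a defining receptor of LMPP, was near background in LMPP as elsewhere (mean log2 signal 5.01, detected on 3 of 4 arrays). The 6 LT-HSC arrays stood apart from each other. The mean log2 signal of the 3 measured neutrophil genes (S100a8, Ltf and Camp) ranged from 5.05 to 9.70 on them, and that of the 3 B cell genes (Ebf1, Vpreb1 and Igll1) from 4.86 to 7.43. On GATA1+LSK arrays the 5 genes of basophils, mast cells and eosinophils averaged 9.41 to 10.1, against 4.86 to 8.10 on all others. Prss34, Fcer1a and Prg2 had their highest mean there, and Prg2 was also high in LT-HSC (12.93, against 13.91). Cpa3 was higher in CMP (9.95) and GATA1-LSK (8.77) than in GATA1+LSK (8.70), and Mcpt8 was alike in CMP (6.56) and GATA1+LSK (6.55). The 4 megakaryocyte genes (Pf4, Vwf, Gp9 and Gp1bb) averaged 9.87 to 11.55 in GATA1+LSK and 8.49 to 9.65 in LT-HSC. They averaged 7.83 to 8.98 in CMP, 7.57 to 7.97 in GATA1-LSK and 5.54 to 5.90 in LMPP. Vwf was highest in LT-HSC (11.54). The 4 erythroid genes (Klf1, Hba-a1, Car1 and Epor) averaged 6.36 to 8.23 in GATA1+LSK, 6.13 to 7.32 in LT-HSC and 6.17 to 6.61 in CMP. They were at most 5.04 in GATA1-LSK and 5.03 in LMPP, and Car1 was highest in LT-HSC (8.59). The part of other cells in the Rab results was not tested. In sorted populations measured in bulk, fewer cells with a transcript and less of it per cell cannot be told apart.

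A moderated F test asked which Rab genes differed anywhere among the 5 populations. It called 12 of 52 (adjusted p under 0.05, 23.1%), where 23.2% of all genes were called, a share near the background. Without adjustment 16 had p under 0.05. The median distance between the highest and lowest population mean was 0.64 log2 units for Rab genes and 0.65 for all genes. The called genes were Rab6b, Rab19, Rab44, Rab7b, Rab34, Rab31, Rab38, Rab25, Rab3d, Rab37, Rab5b and Rab43. Of 30 Rab genes detected on every array 7 were called (23.3%, all such genes 26.1%), and of 12 detected on fewer than 18 arrays 2 were (16.7%, all such genes 16.5%). Genes that passed the detection filter only through 1 population, such as Rab25, were favoured to differ, and their calls are no independent test.

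**Figure D1:**
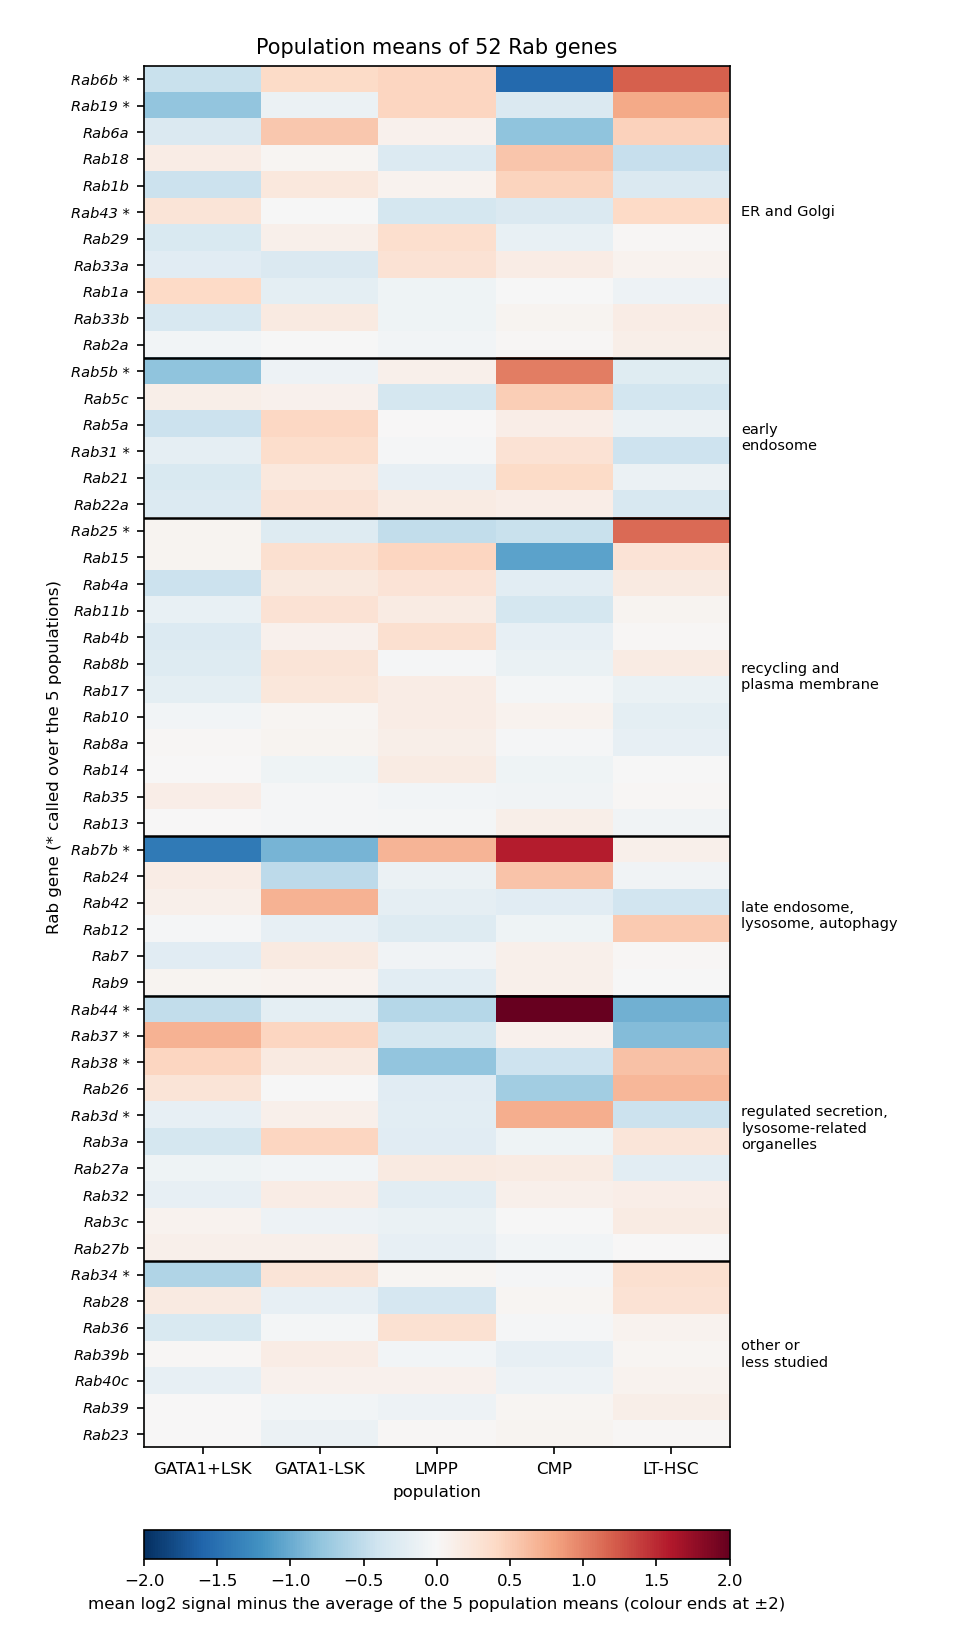
Population means of the 52 Rab genes (rows, grouped by the compartment they serve) in the 5 populations (columns), each as mean log2 signal minus the average of the gene's 5 population means, with colours ending at 2 log2 units either way; stars mark the 12 genes called over the 5 populations. The strong colours sit in few rows, such as Rab44 and Rab7b in CMP and Rab6b and Rab25 in LT-HSC, and most rows are pale.

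Ordered by the compartment served, the calls fell on 3 of 11 genes of transport between endoplasmic reticulum and Golgi (Rab6b, Rab19, Rab43), 2 of 6 of the early endosome (Rab5b, Rab31) and 1 of 12 of recycling and delivery to the plasma membrane (Rab25). They also fell on 1 of 6 genes of the late endosome, lysosome and autophagy (Rab7b), 4 of 10 of regulated secretion and lysosome-related organelles (Rab44, Rab37, Rab38, Rab3d) and 1 of 7 others (Rab34). Over all genes 23.2% were called, and none of these small counts was tested against that share. The median range of means was widest in the secretion group (0.97) and narrowest in the last group (0.30), against 0.65 over all genes.

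Of the 9 called genes whose means spanned at least 1 log2 unit, 5 had an upstream sequence with a single start in the RefSeq table for GRCm38.p6, and these are shown for that reason. Rab6b, Rab19 and Rab25 had their highest mean in LT-HSC, and Rab5b and Rab3d in CMP. Each line gives the 250 bases before the annotated start, 5′ to 3′ on the gene's strand. Capitals mark GATAA, the core of GATA sites, and CACCC, the box bound by Klf factors, each on either strand, so that TTATC and GGGTG are also in capitals. No marked motif overlapped another.
Rab6b, chr9:103111824-103112073, plus strand: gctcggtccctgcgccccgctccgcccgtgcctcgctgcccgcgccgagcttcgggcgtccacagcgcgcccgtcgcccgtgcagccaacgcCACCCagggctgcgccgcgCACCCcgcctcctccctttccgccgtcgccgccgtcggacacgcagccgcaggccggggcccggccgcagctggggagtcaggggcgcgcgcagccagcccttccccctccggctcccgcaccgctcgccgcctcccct
Rab19, chr6:39381103-39381352, plus strand: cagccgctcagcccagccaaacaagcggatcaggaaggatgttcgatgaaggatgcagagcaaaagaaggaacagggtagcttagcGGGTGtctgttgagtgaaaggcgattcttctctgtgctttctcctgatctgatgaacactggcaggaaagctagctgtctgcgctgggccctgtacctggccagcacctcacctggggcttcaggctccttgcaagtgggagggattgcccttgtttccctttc
Rab25, chr3:88548280-88548529, minus strand: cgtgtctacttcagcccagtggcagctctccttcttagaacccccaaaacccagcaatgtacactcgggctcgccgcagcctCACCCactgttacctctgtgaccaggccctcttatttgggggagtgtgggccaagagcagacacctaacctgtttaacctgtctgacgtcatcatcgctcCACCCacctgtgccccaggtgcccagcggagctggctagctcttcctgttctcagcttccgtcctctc
Rab5b, chr10:128696269-128696518, minus strand: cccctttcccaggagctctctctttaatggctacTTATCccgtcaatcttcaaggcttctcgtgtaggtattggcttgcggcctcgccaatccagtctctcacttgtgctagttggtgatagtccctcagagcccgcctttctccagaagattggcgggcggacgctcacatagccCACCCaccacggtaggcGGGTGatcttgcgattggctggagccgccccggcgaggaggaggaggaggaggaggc
Rab3d, chr9:21918184-21918433, minus strand: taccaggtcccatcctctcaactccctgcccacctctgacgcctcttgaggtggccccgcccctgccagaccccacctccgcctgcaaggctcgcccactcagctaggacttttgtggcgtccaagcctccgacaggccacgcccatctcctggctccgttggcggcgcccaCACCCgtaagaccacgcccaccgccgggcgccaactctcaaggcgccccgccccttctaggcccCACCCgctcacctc
The GATAA letters were found in 1 of these 5 windows, that of Rab5b, 216 bases before the start, and in 22.6% of all 32851 windows of this length in the table and 18.5% of the 54 of Rab genes tested. CACCC letters were in all 5 windows shown, in 52.0% of all windows and in 68.5% of those of Rab genes. The window of Rab6b held 80.8% G and C, against a median of 52.4% over all windows.

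Rab6b encodes the form of Rab6 that is abundant in brain and serves traffic to and within the Golgi. Its log2 signal on the CMP arrays was 6.73, 7.15, 6.39 and 6.29, and on the 6 LT-HSC arrays it had a lowest value of 8.86, a median of 9.20 and a highest of 10.06. The GATA1+LSK arrays gave 8.19, 8.44, 7.16 and 7.23, the GATA1-LSK arrays 8.84, 8.67, 8.50 and 8.29, and the LMPP arrays 8.50, 8.47, 8.76 and 8.80. Every CMP array was below every other array, and every LT-HSC array was above every other array. Rab6b was lower in CMP than in LT-HSC by -2.75 ± 0.28 (difference in log2 signal ± SE, adjusted p = 1.61e-07), and -3.10 within slide 2, the slide that held both. It was higher than in CMP in GATA1-LSK (1.94 ± 0.30, adjusted p = 1.67e-04), LMPP (1.99 ± 0.30, adjusted p = 1.54e-04) and GATA1+LSK (1.12 ± 0.30, adjusted p = 0.0271), and lower in GATA1+LSK than in LT-HSC (-1.63 ± 0.28, adjusted p = 2.90e-04). The differences of GATA1-LSK (-0.81 ± 0.28, adjusted p = 0.0964) and LMPP (-0.76 ± 0.28, adjusted p = 0.0684) from LT-HSC did not pass. Median scaling in place of quantile normalisation kept the direction of these 5 calls and ended all but that of CMP against LT-HSC (adjusted p = 0.0156), and the F test (adjusted p = 0.0942). The call of GATA1+LSK against CMP was also lost on leaving out GATA1+LSK replicates 1 or 2 or CMP replicates 1, 3 or 4 (adjusted p up to 0.107).

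Rab19, a less studied Rab of the Golgi, was lowest in GATA1+LSK, with log2 signals of 5.13, 5.23, 4.95 and 5.08, and was detected on 2 of these 4 arrays. It read 5.88, 5.62, 5.75 and 5.84 in GATA1-LSK, 6.16, 6.54, 6.65 and 5.90 in LMPP, and 5.16, 5.76, 5.77 and 5.70 in CMP. The LT-HSC arrays had a lowest value of 6.03, a median of 6.58 and a highest of 7.36. The GATA1+LSK arrays overlapped only those of CMP, and the LT-HSC arrays only those of LMPP. Rab19 was lower in GATA1+LSK than in LT-HSC by -1.54 ± 0.23 (adjusted p = 6.16e-05), and by -1.11 within slide 2 and -1.87 within slide 3. It was also lower in GATA1+LSK than in LMPP (-1.21 ± 0.25, adjusted p = 0.00235), in CMP than in LT-HSC (-1.05 ± 0.23, adjusted p = 0.00184) and in GATA1-LSK than in LT-HSC (-0.87 ± 0.23, adjusted p = 0.0281). Median scaling ended the last 3 of these calls, slide as a fixed block those against LMPP (adjusted p = 0.096) and of GATA1-LSK. That of GATA1-LSK against LT-HSC was lost on leaving out GATA1-LSK replicates 1, 2 or 3, LT-HSC replicates 3, 4 or 5, or the 4 LT-HSC arrays of slide 3 (adjusted p = 0.163 for the last and up to 0.097 for the others).

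Rab43, linked to traffic from the endoplasmic reticulum and, in mouse dendritic cells, to antigen presentation, was named after its values were seen, since its means spanned 0.75. It was lower than in LT-HSC in LMPP (-0.75 ± 0.21, adjusted p = 0.018) and in CMP (-0.68 ± 0.21, adjusted p = 0.0245), with no overlap of arrays in either comparison. One of its 2 other detected probes went the other way in CMP (0.13). Its F test was lost without any 1 of 10 arrays (LMPP replicates 1, 2 or 4, CMP replicates 1, 2 or 4, or LT-HSC replicates 2, 3, 4 or 6, adjusted p up to 0.0743), and both pair calls were lost under median scaling and without the LT-HSC arrays of slide 3, and that of CMP with the mean of probes. The F test was also lost under median scaling (adjusted p = 0.89), with the mean of probes (adjusted p = 0.106) and with other variance estimation (adjusted p = 0.0656). It was lost as well without the LT-HSC arrays of slide 2 (adjusted p = 0.0619) or of slide 3 (adjusted p = 0.126). Rab2a, which acts between endoplasmic reticulum and Golgi, was among the 3 uncalled genes with the smallest range: its population means lay within 0.18, at log2 signals of 12.3 to 13.1 on all arrays.

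Rab5b and Rab31 serve the early endosome, where Rab5 proteins drive fusion of incoming vesicles and Rab31 carries cargo from the Golgi. The CMP arrays of Rab5b read 9.96, 10.08, 10.08 and 9.71. Its log2 signal was 8.00, 7.72, 7.93 and 8.87 in GATA1+LSK, 8.73, 8.91, 8.29 and 9.42 in GATA1-LSK, and 9.17, 8.61, 8.15 and 10.23 in LMPP, and the LT-HSC arrays ran from 7.92 over a median of 8.48 to 10.06. CMP was high on all 4 arrays and overlapped LMPP and LT-HSC through 1 array of each. Rab5b was lower in GATA1+LSK than in CMP (-1.83 ± 0.44, adjusted p = 0.0109), and by -2.16 within slide 2 and -1.03 within slide 4. It was higher in CMP than in LT-HSC (1.27 ± 0.40, adjusted p = 0.0257), a call lost without CMP replicates 1, 2 or 3, LT-HSC replicates 2 or 6, or the LT-HSC arrays of slide 2 (adjusted p = 0.0994 for the last and up to 0.0655 for the others). Its F test (adjusted p = 0.034) was lost on leaving out GATA1+LSK replicates 1, 2 or 3 or any CMP replicate (adjusted p up to 0.0908).

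Rab31, named after its values were seen, was higher than in LT-HSC in CMP (0.70 ± 0.17, adjusted p = 0.00381) and in GATA1-LSK (0.77 ± 0.17, adjusted p = 0.00828). The arrays did not overlap: LT-HSC ran from 11.77 to 12.42, CMP from 12.70 to 12.91 and GATA1-LSK from 12.69 to 12.94. Median scaling ended the call of GATA1-LSK (adjusted p = 0.424) and the F test (adjusted p = 0.128) and kept the call of CMP. Rab5a, the best known early endosome Rab, was not called (F adjusted p = 0.536). Its log2 signal was 6.63, 6.86, 6.68 and 6.94 in GATA1+LSK and 7.49, 7.68, 7.04 and 8.25 in GATA1-LSK, with a difference of -0.84 ± 0.41 (95% interval -1.695 to 0.016, adjusted p = 0.344). It read 6.94, 6.70, 7.65 and 7.58 in LMPP, 6.58, 6.71, 8.33 and 7.73 in CMP, and 6.37 to 8.49 with a median of 6.91 in LT-HSC.

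Rab25 belongs to the Rab11 branch and is known from apical recycling in epithelia. It was detected on all 6 LT-HSC arrays, where its log2 signal had a lowest value of 5.01, a median of 5.94 and a highest of 7.81, and on 1 GATA1+LSK and 1 CMP array. Rab25 thus passed the detection filter only through LT-HSC, and its p-values and folds below are no independent test that LT-HSC is higher. The GATA1+LSK arrays read 4.59, 4.77, 6.14 and 4.54, the GATA1-LSK arrays 4.84, 4.94, 4.48 and 4.52, the LMPP arrays 4.52, 4.66, 4.33 and 4.34, and the CMP arrays 4.77, 4.41, 4.45 and 4.42. LT-HSC did not overlap GATA1-LSK, LMPP or CMP, and overlapped GATA1+LSK through replicate 3, which lay on slide 3. The signal in LT-HSC was at least 2.28-fold higher than in LMPP (adjusted p = 0.00786) and at least 2.19-fold higher than in GATA1-LSK (adjusted p = 0.0491), in both of which it was detected on no array, and the difference in CMP was -1.58 ± 0.41 (adjusted p = 0.00748). The LT-HSC arrays of slide 3 had a mean of 6.63 and those of slide 2 a mean of 5.01. Without those of slide 3 the F test (adjusted p = 0.354) and all 3 pair calls were lost, and within slide 2 CMP differed from LT-HSC by -0.42. With slide as a fixed block the difference of CMP was -0.73 (adjusted p = 0.176), and the F test was lost (adjusted p = 0.0869), as was the call of GATA1-LSK (adjusted p = 0.0682). The call of GATA1-LSK was lost without any 1 of 18 arrays (all but GATA1+LSK replicates 3 and 4 and LT-HSC replicates 1 and 2, adjusted p up to 0.133) and with the replicate number as a block. Rab13, another plasma membrane Rab, was detected on 4 arrays (GATA1+LSK replicate 2, CMP replicates 1 and 2 and LT-HSC replicate 1), and its means lay within 0.19. Rab11a, the main recycling Rab, did not pass the detection filter.

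Rab7b, a late endosome Rab that carries cargo towards the Golgi and is known from monocytes and macrophages, was not detected on any GATA1+LSK array (log2 signal 4.62, 4.70, 4.88 and 4.64). It read 5.37, 5.28, 4.54 and 5.53 in GATA1-LSK, 6.52, 6.26, 7.11 and 7.31 in LMPP, and 6.68, 7.67, 8.54 and 7.84 in CMP. GATA1+LSK and GATA1-LSK overlapped each other and lay below all LMPP and CMP arrays. Its signal was at least 6.54-fold higher in CMP than in GATA1+LSK (adjusted p = 7.92e-04) and in LMPP by at least 3.55-fold (adjusted p = 0.0132). It was also lower in GATA1-LSK than in CMP (-2.50 ± 0.53, adjusted p = 0.00351). A second probe, detected on only 6 arrays, differed in the same direction, by -1.31, -0.33 and -1.5 in these comparisons. Its means in GATA1+LSK (4.56), GATA1-LSK (4.37) and LMPP (4.89) were near background. These calls held under all alternatives. The LT-HSC arrays had a lowest value of 4.52, a median of 6.62 and a highest of 7.61, with 4.80 and 4.52 on the 2 arrays of slide 2 and 6.20 to 7.61 on the 4 of slide 3. The call of GATA1+LSK against LT-HSC (adjusted p = 0.0498) rested on slide 3: the difference was 0.003 within slide 2 and -2.12 within slide 3, and 0.05 (adjusted p = 0.951) without the LT-HSC arrays of slide 3. That call was lost without any 1 of 18 arrays (all but CMP replicates 1 and 3 and LT-HSC replicates 1 and 2, adjusted p up to 0.111) and with the replicate number as a block (adjusted p = 0.131). It was also lost without background correction (adjusted p = 0.0547), with the authors' values (0.052), under median scaling (0.0806) and with slide as a fixed block (0.0558). The same held without a detection filter (adjusted p = 0.0996), with the mean of probes (0.0921) and with only these populations in the fit (0.182). Rab7b was higher in CMP than in LT-HSC by 1.47 ± 0.49 (adjusted p = 0.034), and by 2.52 within slide 2, a call lost without CMP replicates 2, 3 or 4, LT-HSC replicates 1, 2 or 3, or the LT-HSC arrays of slide 2 (adjusted p = 0.149 for the last and up to 0.122 for the others).

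Rab7, the general late endosome and lysosome Rab, was not called (F adjusted p = 0.748). It read 8.56, 8.69, 8.47 and 8.36 in GATA1+LSK, 9.05, 9.04, 9.19 and 8.40 in GATA1-LSK, 8.91, 8.99, 8.71 and 8.09 in LMPP, 8.83, 9.09, 8.47 and 8.99 in CMP, and 8.22 to 9.41 with a median of 8.83 in LT-HSC. All populations overlapped, and the 95% intervals of its 10 differences lay between -0.95 and 0.80.

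**Figure D2:**
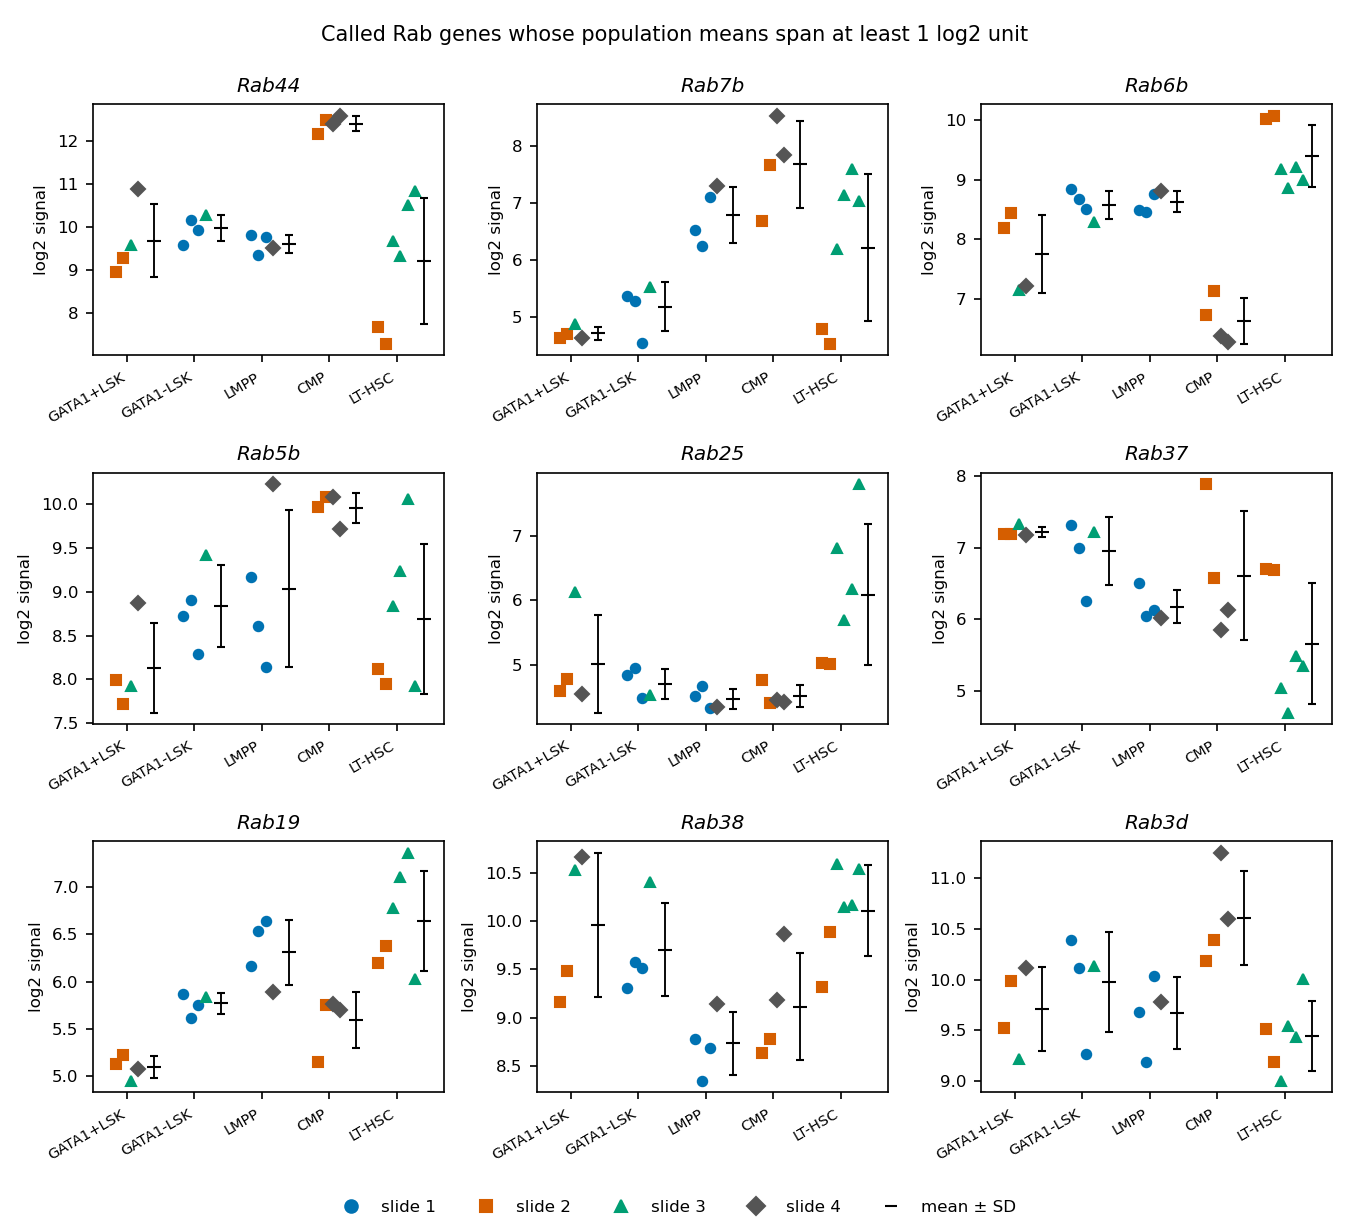
Log2 signal (vertical axes) on every array of the 9 called Rab genes whose population means spanned at least 1 log2 unit, by population (horizontal axes), with symbols for the slide and bars for mean ± SD. The CMP arrays of Rab44 (12.15 to 12.57) lie above all others, those of Rab6b lie below all others, and LT-HSC arrays of slides 2 and 3 separate for Rab44, Rab7b, Rab6b, Rab25, Rab37 and Rab38.

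Among the Rabs of regulated secretion, Rab44 is an unusually large member with EF-hand domains, studied in mouse mast cell degranulation and osteoclasts. On CMP arrays its log2 signal was 12.15, 12.50, 12.38 and 12.57. The other populations read 8.96, 9.27, 9.58 and 10.89 (GATA1+LSK), 9.58, 10.15, 9.93 and 10.27 (GATA1-LSK) and 9.81, 9.35, 9.76 and 9.51 (LMPP), and LT-HSC ran from 7.28 over a median of 9.50 to 10.84. CMP overlapped no other population, and the others overlapped each other. Rab44 was higher in CMP than in LT-HSC by 3.18 ± 0.52 (adjusted p = 9.61e-05), and lower than in CMP in LMPP (-2.79 ± 0.57, adjusted p = 0.0031), GATA1+LSK (-2.72 ± 0.57, adjusted p = 0.00367) and GATA1-LSK (-2.42 ± 0.57, adjusted p = 0.00863). Within slides, GATA1+LSK differed from CMP by -3.21 on slide 2 and -1.59 on slide 4, LMPP by -2.97 on slide 4, and CMP from LT-HSC by 4.85 on slide 2. These 4 calls held under all alternatives. The LT-HSC arrays split by slide, with means of 7.47 on slide 2 and 10.09 on slide 3, so the difference from CMP was 4.93 without those of slide 3 and 2.31 without those of slide 2.

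Rab3d, a Rab of secretory granules in exocrine and mast cells, was also highest in CMP (10.18, 10.39, 11.25 and 10.60). It read 9.53, 9.99, 9.22 and 10.12 in GATA1+LSK, 10.39, 10.11, 9.27 and 10.13 in GATA1-LSK, 9.68, 9.19, 10.04 and 9.78 in LMPP, and 9.0017 to 10.004 with a median of 9.47 in LT-HSC. CMP overlapped only GATA1-LSK. The difference between CMP and LT-HSC was 1.16 ± 0.26 (adjusted p = 0.00224) and held under all alternatives. Those of CMP from GATA1+LSK (adjusted p = 0.0678) and LMPP (adjusted p = 0.0568) did not pass. The F test was lost without CMP replicates 3 or 4 (adjusted p up to 0.0869) and with slide as a fixed block (adjusted p = 0.0797).

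Rab37, linked to exocytosis in mast cells and macrophages, had nearly equal log2 signals in GATA1+LSK (7.19, 7.19, 7.33 and 7.18). The other arrays read 7.31, 6.9996, 6.26 and 7.22 in GATA1-LSK, 6.51, 6.04, 6.13 and 6.02 in LMPP, and 7.88, 6.57, 5.85 and 6.13 in CMP, and LT-HSC ran from 4.70 over a median of 5.41 to 6.70. GATA1+LSK lay above all LMPP and LT-HSC arrays. The difference from LT-HSC was 1.56 ± 0.38 (adjusted p = 0.00842), and that from LMPP 1.05 ± 0.42 (adjusted p = 0.148), which did not pass. Within slide 2 GATA1+LSK exceeded LT-HSC by 0.50 and within slide 3 by 2.19, and LT-HSC had means of 6.69 and 5.14 on these slides. The call was lost without the LT-HSC arrays of slide 3 (0.53, adjusted p = 0.418) and under median scaling (adjusted p = 0.42), and the F test also without LT-HSC replicate 3 (adjusted p = 0.0503).

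Rab38 and Rab32 build lysosome-related organelles such as melanosomes and platelet dense granules. Rab38 read 8.77, 8.34, 8.68 and 9.14 in LMPP and 8.63, 8.78, 9.18 and 9.87 in CMP. Its log2 signal was 9.16, 9.48, 10.53 and 10.67 in GATA1+LSK and 9.31, 9.58, 9.52 and 10.41 in GATA1-LSK, and LT-HSC ran from 9.32 over a median of 10.16 to 10.59. LMPP lay below GATA1+LSK, GATA1-LSK and LT-HSC without overlap. Rab38 was lower in LMPP than in LT-HSC (-1.38 ± 0.32, adjusted p = 0.00453), lower in CMP than in LT-HSC (-0.995 ± 0.32, adjusted p = 0.031) and higher in GATA1+LSK than in LMPP (1.23 ± 0.35, adjusted p = 0.0309, and 1.53 within slide 4). A second detected probe differed in the same direction by -0.25, -0.08 and 0.51. The call of LMPP against LT-HSC was lost without the LT-HSC arrays of slide 3 (adjusted p = 0.175), that of CMP also under median scaling, with the mean of probes, and without CMP replicates 1, 2 or 3 or LT-HSC replicates 3 or 6 (adjusted p up to 0.117), and that of GATA1+LSK without GATA1+LSK replicates 3 or 4 or LMPP replicates 1, 2 or 3 (adjusted p up to 0.13). The call of GATA1+LSK against LMPP was also lost with only these populations in the fit (adjusted p = 0.0778). The F test of Rab38 was lost under median scaling (adjusted p = 0.06) and without the LT-HSC arrays of slide 3 (adjusted p = 0.0706).

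Rab32 was not called (F adjusted p = 0.204). It read 10.87, 10.52, 10.61 and 10.69 in GATA1+LSK, 11.21, 11.05, 10.78 and 10.89 in GATA1-LSK, 10.76, 10.66, 10.31 and 10.78 in LMPP, 10.97, 11.08, 10.82 and 10.86 in CMP, and 10.71 to 11.23 with a median of 10.96 in LT-HSC. The largest difference between its population means was 0.36.

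Rab27a and Rab27b, the granule secretion Rabs of platelets and leukocytes, were not called. Rab27a was strongly detected on all arrays, at log2 signals of 12.58, 12.61, 12.32 and 12.64 in GATA1+LSK, 13.02, 12.65, 12.14 and 12.49 in GATA1-LSK, 13.04, 12.61, 12.72 and 12.86 in LMPP, 12.53, 12.72, 13.11 and 12.76 in CMP, and 11.79 to 12.79 with a median of 12.56 in LT-HSC. Its differences between populations were at most 0.39, with 95% intervals between -0.74 and 0.82 (F adjusted p = 0.487). The probe of Rab27b was near background, detected on 8 of 22 arrays. It read 4.81, 5.22, 5.06 and 4.81 in GATA1+LSK, 4.60, 4.97, 4.90 and 5.43 in GATA1-LSK, 4.69, 4.63, 4.92 and 4.55 in LMPP, 4.72, 4.65, 4.73 and 5.17 in CMP, and 4.40 to 5.77 with a median of 4.83 in LT-HSC. No difference in Rab27b was detected (GATA1+LSK minus GATA1-LSK 0.003 ± 0.24, F adjusted p = 0.867). The 95% intervals of its differences lay between -0.65 and 0.79, and differences below background cannot be seen.

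Rab34, known for positioning lysosomes and for cilium formation, was named after its values were seen. It was the 1 Rab gene of 52 called between GATA1+LSK and GATA1-LSK (all genes 2.80%). It read 5.08, 5.18, 4.67 and 5.26 in GATA1+LSK, where 2 arrays detected it, and 6.01, 6.01, 5.91 and 5.69 in GATA1-LSK, where all 4 did. The difference was -0.86 ± 0.19 (adjusted p = 0.013), with -0.62 for its other detected probe and -1.03 within slide 3. It was lost without GATA1+LSK replicate 3 (adjusted p = 0.0564), with slide as a fixed block (adjusted p = 0.0781), under median scaling (adjusted p = 0.682) and with only these populations in the fit. GATA1+LSK was also lower than LT-HSC (-0.92 ± 0.17, adjusted p = 8.04e-04) and LMPP (-0.63 ± 0.19, adjusted p = 0.0387), both lost under median scaling, and the latter also with slide as a fixed or random block, with the mean of probes, and without GATA1+LSK replicates 1 or 3 or LMPP replicates 1, 3 or 4 (adjusted p up to 0.16). Median scaling ended the F test of Rab34 too (adjusted p = 0.456). Rab23, a less typical Rab tied to hedgehog signalling, had the smallest range of all 52 (0.17) and was detected on 5 arrays.

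Set against each other in pairs, the populations differed by few Rab genes, and 40 of 520 tests were called, in 17 genes. GATA1+LSK differed from LMPP in 4 Rab genes (all genes 8.59%), from CMP in 4 (6.46%) and from LT-HSC in 5 (10.5%). GATA1-LSK differed from LMPP in none by the moderated test of limma (3.53% of all genes), where 4 had an unadjusted p under 0.05 and 1 or 2 were called under 7 alternatives, from CMP in 4 (7.74%) and from LT-HSC in 3 (5.56%). LMPP differed from CMP in 2 Rab genes (5.91%), which became 5 with the replicate number as a block, and from LT-HSC in 4 (16.4%). All 4 were lower in LMPP, and all 4 calls were lost without the LT-HSC arrays of slide 3. In that setting 5 other Rab genes were called higher in LMPP and 1 lower (17.9% of all genes called). CMP and LT-HSC were the pair with the most Rab calls, 13 of 52 (25% of Rab genes, 21.6% of all). Of these 6 were higher in CMP (all genes 10.3%) and 7 lower (11.4%), and with median scaling 5 were higher and 2 lower, while of all called genes 47.5% were higher and 63.3% with median scaling, which moved the median difference of all genes to 0.29. Each share is near its background except that of LMPP against LT-HSC (7.69%) and of GATA1-LSK against LMPP, which are below it, and no test of those differences was made.

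**Figure D3:**
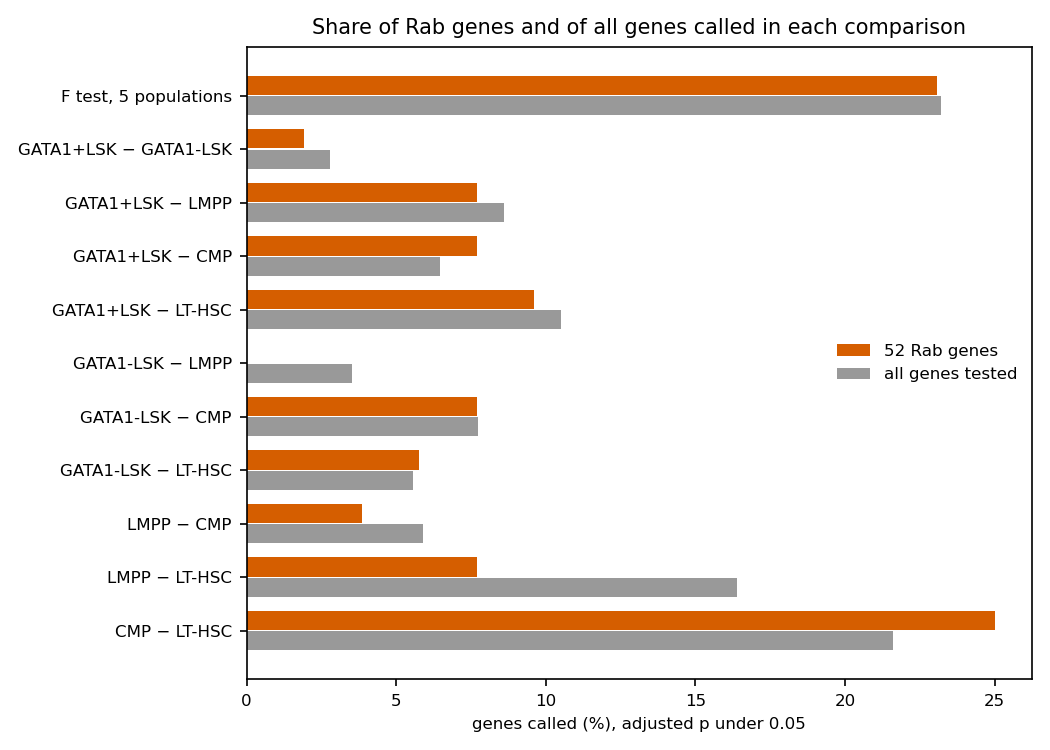
Percentage of genes called (horizontal axis, adjusted p under 0.05) in the F test and in the 10 pairs of populations (vertical axis), for the 52 Rab genes and for all 11118 genes tested. The Rab bars run from 0 in GATA1-LSK against LMPP to 25% in CMP against LT-HSC, and that of LMPP against LT-HSC (7.69%) is shorter than its grey bar (16.4%).

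In 5 genes a pair was called although the F test was not, and they were named after their values were seen. Rab24, an autophagy Rab, was lower in GATA1-LSK than in CMP (-1.08 ± 0.28, adjusted p = 0.0149), with the same direction in both of its other detected probes, and was lost without GATA1-LSK replicate 2 or CMP replicates 1 or 4 (adjusted p up to 0.0746). These populations share no slide, and the difference was -0.34 (adjusted p = 0.652) with slide as a fixed block, -0.70 (adjusted p = 0.182) with it as a random block, and also lost under median scaling (adjusted p = 0.211) and with the mean of probes (adjusted p = 0.0769). Rab28 was lower in LMPP than in LT-HSC (-0.63 ± 0.19, adjusted p = 0.0227), a call lost without LMPP replicates 1 or 3 or LT-HSC replicate 4 (adjusted p up to 0.0933). Those populations share no slide either, and it was -0.35 (adjusted p = 0.471) with slide as a fixed block, -0.39 (adjusted p = 0.602) under median scaling, -0.36 (adjusted p = 0.375) with the mean of probes and -0.46 (adjusted p = 0.202) without the LT-HSC arrays of slide 3. Between CMP and LT-HSC, Rab1b, which acts between endoplasmic reticulum and Golgi, was higher in CMP (0.74 ± 0.26, adjusted p = 0.0427), Rab26, a secretory granule Rab, was lower (-1.36 ± 0.45, adjusted p = 0.0324, with 0.16 in its other detected probe), and Rab15, a recycling Rab, was detected on no CMP array and was at least 1.82-fold higher in LT-HSC (adjusted p = 0.0465). Arrays overlapped in these last 3 cases, and each call was lost when some single arrays were left out: for Rab1b any of GATA1-LSK replicates 1 and 2, CMP replicates 1 and 2 and LT-HSC replicates 3 to 6 (adjusted p up to 0.147), for Rab26 any of CMP replicates 2 to 4 and LT-HSC replicates 3 to 5 (up to 0.109), and for Rab15 any of 13 arrays that included all 4 of CMP (up to 0.106). All 3 calls were also lost with slide as a fixed block (-0.46, adjusted p = 0.547, for Rab26, and adjusted p = 0.0706 for Rab1b and 0.163 for Rab15) and under median scaling. Without the LT-HSC arrays of slide 3, the difference was 0.17 (adjusted p = 0.736) for Rab1b and -0.64 (adjusted p = 0.411) for Rab26, and without those of slide 2 it was -1.01 (adjusted p = 0.143) for Rab15.

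The LT-HSC arrays of slide 2 (2 arrays) and slide 3 (4 arrays) did not overlap for 25 of the 52 Rab genes, and for 49.4% of all genes. The largest gaps were in Rab44 (7.47 on slide 2 and 10.09 on slide 3), Rab18 (7.14 and 4.74), Rab7b (4.66 and 6.997), Rab25 (5.01 and 6.63) and Rab33b (9.37 and 7.76), the means of the arrays on each slide. Without the LT-HSC arrays of slide 3, 13 of the 40 pair calls were lost, and without those of slide 2, 3 were. Slide and labelled replicate went together here, and the marker genes of other cells also varied among the LT-HSC arrays. Whether those markers followed the slide was not tested, and the parts of slide, replicate and other cells cannot be told apart.

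**Figure D4:**
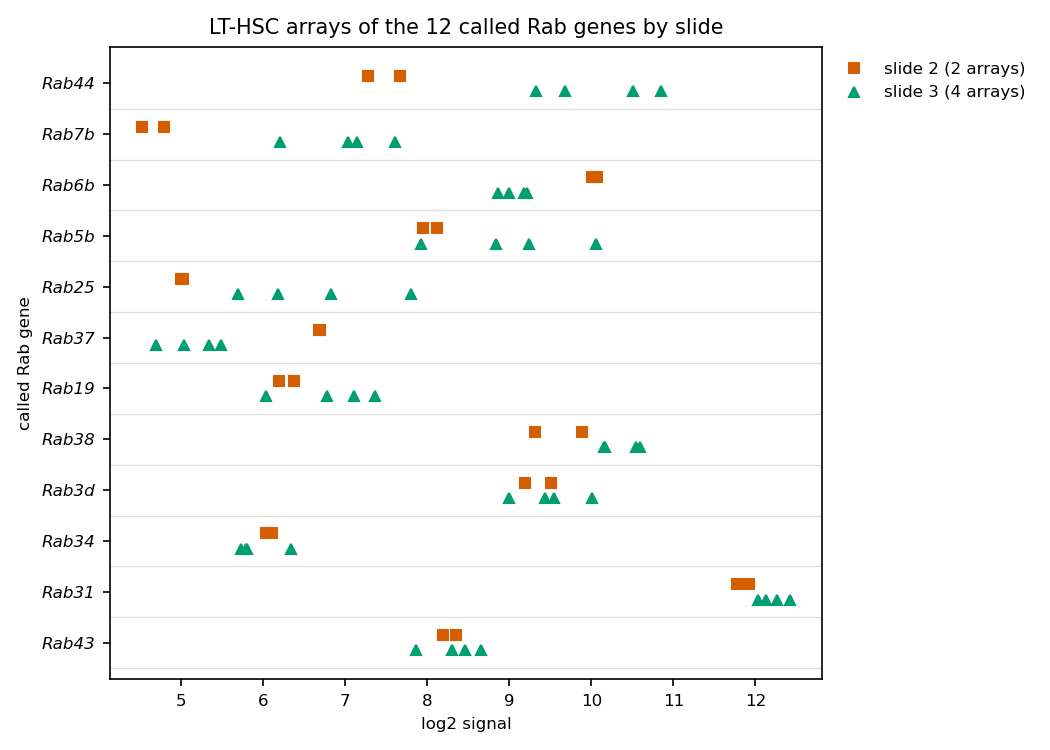
Log2 signal (horizontal axis) on the 6 LT-HSC arrays for the 12 called Rab genes (vertical axis), with squares for the 2 arrays of slide 2 and triangles for the 4 of slide 3. The slides separate for Rab44, Rab7b, Rab6b, Rab25, Rab37, Rab38 and Rab31 and overlap for the other genes shown.

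The regulators and partners of Rab proteins were read from 4 lists, with 23.2% of all genes called by the F test as background. None of 5 measured genes for prenylation and GDP dissociation was called by limma's F test, and 0 had an unadjusted p under 0.05, with a median range of means of 0.41. The counts were 11 of 35 GEF genes (31.4%), 5 of 28 GAP genes (17.9%) and 9 of 34 effector genes (26.5%), with median ranges of 0.72, 0.68 and 0.81 against 0.65 over all genes. Of the 11 called GEF genes, 10 had their highest mean in LT-HSC, as did 33.4% of all called genes. This was 3 of 3 with median scaling, 8 of 8 with slide as a fixed block, and 5 of 8 without the LT-HSC arrays of slide 3.

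The 3 GEF genes with the largest range were Dennd2a, an exchange factor for Rab9, Rin2, one for Rab5, and Dennd1c, one for Rab35. Dennd2a read 7.78 to 9.73 with a median of 8.06 on LT-HSC arrays and 4.95, 5.22, 4.75 and 5.30 in GATA1+LSK. Its log2 signal was 5.97, 5.79, 6.70 and 6.13 in GATA1-LSK, 6.60, 6.26, 6.29 and 7.07 in LMPP, and 4.79, 4.85, 5.20 and 4.54 in CMP. LT-HSC lay above all other arrays. CMP minus LT-HSC was -3.46 ± 0.30 (adjusted p = 1.65e-08), and GATA1+LSK minus LT-HSC was -3.26 ± 0.30 (adjusted p = 1.26e-07), -2.79 within slide 2 and -3.78 within slide 3. Rin2 was lower than in LT-HSC in GATA1+LSK (-2.61 ± 0.33, adjusted p = 9.13e-06), LMPP (-2.36 ± 0.33, adjusted p = 2.13e-05), CMP (-2.03 ± 0.33, adjusted p = 9.43e-05) and GATA1-LSK (-1.39 ± 0.33, adjusted p = 0.0152, lost without GATA1-LSK replicate 1), with no overlap of arrays. Median scaling ended the last 2 of these calls. Dennd1c was lowest in CMP (7.58, 7.72, 7.83 and 7.84) and highest in LT-HSC (9.54 to 9.87), a difference of -1.95 ± 0.18 (adjusted p = 3.58e-08) that median scaling kept while it ended the F test (adjusted p = 0.125).

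**Figure D5:**
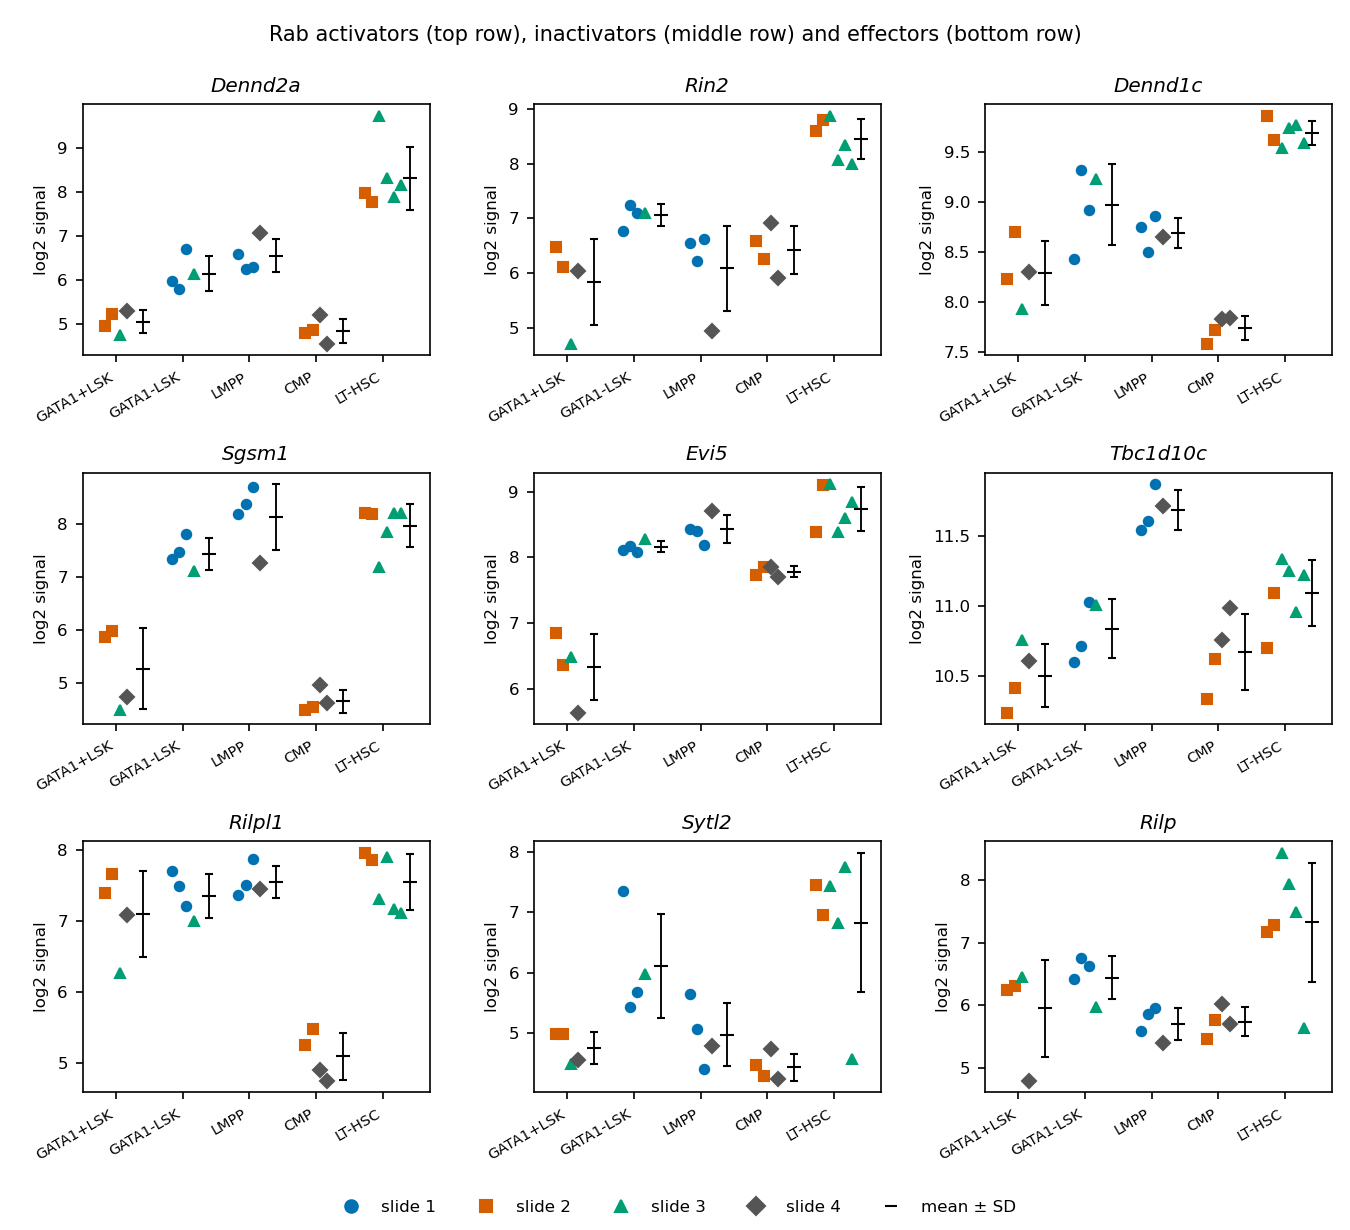
Log2 signal (vertical axes) on every array for the 3 called GEF genes (top), GAP genes (middle) and effector genes (bottom) with the largest range of means, by population (horizontal axes), with symbols for the slide and bars for mean ± SD. The LT-HSC arrays of Dennd2a and Rin2 lie above all others, and Evi5 is lowest on the 4 GATA1+LSK arrays.

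Among GAP genes, Sgsm1 was lowest in CMP (4.49, 4.54, 4.96 and 4.61), where no array detected it, and low in GATA1+LSK (5.87, 5.99, 4.49 and 4.74). It read 7.34, 7.47, 7.83 and 7.12 in GATA1-LSK, 8.20, 8.38, 8.71 and 7.27 in LMPP, and 7.19 to 8.22 in LT-HSC. Its signal was at least 9.47-fold higher in LMPP than in CMP (adjusted p = 2.62e-07), and lower in GATA1+LSK than in GATA1-LSK by -2.17 ± 0.33 (adjusted p = 5.73e-04), lost under median scaling. Evi5, first known from viral integration in mouse lymphoma, was lower in GATA1+LSK (6.84, 6.36, 6.48 and 5.63) than in GATA1-LSK (8.12, 8.17, 8.09 and 8.28) by -1.84 ± 0.22 (adjusted p = 2.62e-05), and its GATA1+LSK arrays lay below all others. That call and the one of GATA1+LSK against CMP (-1.46 ± 0.22) were lost under median scaling (adjusted p = 0.149 and 0.0628). Those of GATA1+LSK against LMPP (-2.11 ± 0.22) and LT-HSC (-2.41 ± 0.20) were kept. Tbc1d10c, which also restrains calcineurin in T cells, was highest in LMPP (11.54, 11.60, 11.87 and 11.71), and GATA1+LSK minus LMPP was -1.17 ± 0.18 (adjusted p = 1.21e-04), kept under median scaling while the F test was not (adjusted p = 0.0664).

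Among effector genes, Rilpl1, a relative of the Rab7 effector Rilp, was lowest in CMP (5.25, 5.48, 4.90 and 4.75) and lay at 6.26 or above on all other arrays. CMP minus LT-HSC was -2.46 ± 0.25 (adjusted p = 1.99e-07). Sytl2, an effector of Rab27 proteins in granule docking, had its highest mean in LT-HSC (6.83, with arrays from 4.58 to 7.75) and was detected on no CMP array. It was at least 3.82-fold higher in LT-HSC than in CMP (adjusted p = 4.90e-04), although 1 LT-HSC array lay within the CMP range. Rilp was higher in LT-HSC than in LMPP (LMPP minus LT-HSC -1.62 ± 0.39, adjusted p = 0.00504) and CMP (CMP minus LT-HSC -1.58 ± 0.39, adjusted p = 0.0045), calls lost with slide as a fixed block and under median scaling.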

How the data were processed

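Total RNA of 22 sorted samples was hybridised as biotin-labelled cRNA to Illumina bead arrays. The deposited intensities are linear, not normalised between arrays and partly below 0, so background had been subtracted on each array, per the file headers and values. The authors' detection p-values stand beside them, per the file headers, and BeadStudio is named without a version in the submitters' processing notes. The series matrix holds the authors' quantile-normalised intensities. Other upstream steps are not given in the sources used here.

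Intensities were background-corrected with limma 3.58.1 (nec with detection p, offset 16, R 4.3.3), taken to log2 and quantile normalised. Of 45281 probes, 34885 had 1 gene, 18 several and 10378 none in the platform annotation, and 34807 symbols were updated through Entrez ID with RefSeq GRCm38.p6. Each gene was measured by its brightest probe detected (p under 0.05) on at least 4 arrays. A model with a mean per population was fitted to all 22 arrays (17 residual degrees of freedom) with lmFit and eBayes, giving a moderated F test and 10 pairwise tests, adjusted by Benjamini-Hochberg over 11118 genes with a threshold of 0.05. The difference is always the first named population minus the second. Where no array of the dimmer population detected a gene, only a bound ("at least") is given, from the higher of its signal and the lowest detected signal of each array. Intervals are 95% intervals from the moderated standard error with the 17 residual degrees of freedom. They are slightly wider than those of the moderated test itself, and the number of arrays limits their precision. Code was tested on simulated data.

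The members and gene lists were chosen with earlier results of these data known. Values on every array are given for called Rab genes with means spanning at least 1 log2 unit and for 10 Rabs of granules and endosomes where measured, with the 3 uncalled genes of smallest range and the 3 called regulators of largest range per class; others named are marked. Alternatives were no background correction, median scaling, the authors' values, other detection filters, the mean of probes, slide as a block (with statmod 1.5.0), blocking by replicate number, other variance estimation, only the populations compared, and leaving out each array. The LT-HSC arrays of slides 2 and 3 were left out as alternatives chosen after seeing the data. Same-numbered replicates deviated together in every pair (correlation over 0.1) in 5 comparisons: GATA1+LSK with CMP (0.19 to 0.59) and LT-HSC (0.25 to 0.65), LMPP with CMP (0.33 to 0.48) and LT-HSC (0.12 to 0.49), and CMP with LT-HSC (0.18 to 0.58). LT-HSC replicates 5 and 6 drop out of fits with that block.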

Additional observations from a re-analysis of the deposited data

Results flagged for a closer look

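Of 100 groups of arrays examined (20 Rab genes in 5 populations), 8 held an array set apart from the others by Dixon's criterion, and chance sets apart about 1 in 20. Rab25 read 6.14 on GATA1+LSK replicate 3, with the nearest array at 4.77, and 4.77 on CMP replicate 1, with the nearest at 4.45, each the 1 array of its population that detected it. Rab23 read 5.80 on LT-HSC replicate 3 (nearest 4.67) and Rab27b 5.17 on CMP replicate 4 (nearest 4.73), both near background elsewhere. Rab37 read 7.33 on GATA1+LSK replicate 3, above 3 nearly equal arrays (nearest 7.19). Low arrays were CMP replicate 1 for Rab19 (5.16, nearest 5.70), GATA1+LSK replicate 4 for Rab2a (12.6, nearest 12.7) and GATA1-LSK replicate 4 for Rab43 (7.31, nearest 8.09).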

How the results depend on the processing

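Of the 40 pair calls, 12 held under all 35 alternatives and 23 under the omission of any 1 array, and of the 12 F calls 3 (Rab19, Rab44, Rab7b) and 8 did. Median scaling left 6 Rab genes called by the F test, and in pairs 0 (GATA1+LSK with GATA1-LSK), 2 (with LMPP), 2 (with LT-HSC), 1 (GATA1-LSK with LMPP), 2 (with CMP), 1 (with LT-HSC), 1 (LMPP with CMP), 2 (with LT-HSC) and 7 (CMP with LT-HSC), with 3 GEF and 3 effector genes, and ended 21 of the 40 pair calls. It moved the median difference of all genes to -0.22 (GATA1+LSK minus CMP), -0.23 (GATA1-LSK minus CMP), -0.11 (GATA1+LSK and CMP against LMPP, as GATA1+LSK minus LMPP and LMPP minus CMP), -0.12 (GATA1-LSK minus LMPP), 0.17 (LMPP minus LT-HSC) and 0.29 (CMP minus LT-HSC), and turned no called Rab direction. With slide as a fixed or random block, GATA1+LSK against CMP had 7 calls and GATA1-LSK against LMPP 2, and the random block gave 2 for GATA1+LSK against GATA1-LSK. The replicate block gave 2 for GATA1-LSK against LMPP, 6 against LT-HSC, 5 for LMPP against CMP and 8 GAP genes, ended the calls of Rab25 (GATA1-LSK minus LT-HSC) and Rab7b (GATA1+LSK minus LT-HSC) and no other Rab pair call, and added calls, with 5 for GATA1+LSK against LMPP and 6 each for GATA1+LSK and GATA1-LSK against CMP and LMPP against LT-HSC. Without a detection filter CMP against LT-HSC had 7. With only the populations compared, counts were 0 for GATA1+LSK against GATA1-LSK and 1 for GATA1-LSK against LMPP and LT-HSC each. Without the LT-HSC arrays of slide 2, GATA1-LSK had 1 call against LMPP and 6 against LT-HSC. Without those of slide 3, GATA1+LSK had 2 against GATA1-LSK, GATA1-LSK 1 against LMPP and 5 against LT-HSC, and LMPP 4 against CMP, and Rab7b in GATA1+LSK minus LT-HSC turned to 0.049. LMPP minus LT-HSC then had 5 Rab genes higher and 1 lower, in place of 0 higher and 4 lower. Where no cause is shown by a value, the cause was not tested.

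Leaving out single arrays gave 9 to 14 F calls, 0 to 2 for GATA1+LSK against GATA1-LSK (0 without GATA1+LSK replicate 3, 2 without replicate 4), 2 to 5 against LMPP (2 without LMPP replicates 1 or 3 or GATA1+LSK replicate 3), 1 to 4 for GATA1-LSK against LT-HSC (1 without GATA1-LSK replicates 1 or 2 or LT-HSC replicates 3, 4 or 5), 6 to 14 for CMP against LT-HSC (6 without CMP replicate 2, 8 without CMP replicate 1 or LT-HSC replicate 3), and 4 to 8 GAP genes (8 without GATA1+LSK replicate 1).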
